A study of Mus musculus with 9 samples.

Results

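The keratin genes of mouse labial mucosa were the 50 members of the family whose symbol is Krt followed by digits only, found under that rule in all 9 deposited tables, out of 55342 gene names in each. Membership needed no expression level, and 48 of the 50 passed the filter on low counts. The 50 comprise 26 type I (acidic) and 24 type II (basic) keratin genes, in clusters on chromosomes 11 and 15. Krt6a, Krt6b, Krt33a and Krt33b carry a letter in the symbol and fall outside the rule. The libraries came from labial mucosa biopsies of mice of 3 strains, with 3 libraries per strain, sequenced in bulk as polyadenylated RNA with a stranded kit. The strains are labelled B6 (replicates 1, 2 and 3), Tac111 (replicates 1, 2 and 3) and Tac146 (replicates 2, 3 and 4), and values of a strain are listed below in that replicate order. The protocol given for all groups says that the mice carried different mutations and had been infected by the time of biopsy. No source used here gives the alleles, the agent, the interval since infection or the age of the mice. The study asked how the strains differ. The cell type label reads ILC1, type 1 innate lymphoid cells, for B6 and T cells for Tac111 and Tac146, so the label cannot be told apart from the strain.

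Keratins are the intermediate filament proteins of epithelial cells. Each filament is built from pairs of 1 type I and 1 type II chain, and the pair in use marks the layer and the kind of epithelium. Krt5 and Krt14 form the network of dividing basal cells, Krt4 and Krt13 that of the non-cornifying layers of mouth and oesophagus, and Krt1 and Krt10 that of the cornifying epidermis. Krt6, Krt16 and Krt17 are induced in stressed or wounded epithelium and are also made in the follicle, Krt8, Krt18 and Krt19 belong to simple epithelia, and separate sets build the inner root sheath and the shaft of the hair. Labial mucosa borders on haired skin, where hair follicles and sebaceous glands lie.

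Keratin transcripts made up 8.5% to 11.4% of all counts in a library, against totals of 27192359 to 46456500 expected counts. Transcripts of the 8 T cell markers summed to 1.31 to 9.52 CPM and those of the 8 ILC1 and natural killer cell markers to 0.794 to 6.19 CPM, with Cd3e, a chain of the T cell receptor complex, at 0 in the 3 Tac111 libraries. The defining markers of the labelled cell types were thus near 0, beside keratin sums of 82927 to 118056 CPM. Tac146 replicate 4 had the lowest sum of skeletal muscle markers, 16679.6 CPM, with the next lowest at 24296 CPM in Tac146 replicate 2. It also had the lowest sum of fibroblast markers, 1269 CPM, with the next lowest at 1859 CPM in Tac146 replicate 3. The muscle sums of all 3 Tac146 libraries lay below those of every B6 and Tac111 library (27632 to 30988 CPM), while the fibroblast sums of the strains overlapped. In bulk samples such as these, fewer cells of a type and less RNA per cell cannot be told apart. No label states that libraries of a strain are separate animals, so p-values measure only the spread between these libraries, and that spread may be technical.

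Because the follicle keratins varied together between libraries and Krt2 and Krt90 differed in opposite directions, the promoters of 6 members were read from RefSeq on GRCm38.p6, from 250 bases before to 50 bases after the annotated start, 5′ to 3′ on the gene's strand. A promoter entry was found for 35 of the 50 members. Capitals mark TATAAA, the TATA box core, and CTTTGA, the core of the site bound by LEF and TCF factors, each searched on both strands, so that TTTATA and TCAAAG are marked too. The first 3 are the inner root sheath keratins of highest mean level per kilobase, and Krt32 is the hair keratin that passed the test. Krt71 lies on the minus strand at chr15:101743048-101743347, Krt25 on the minus strand at chr11:99322902-99323201 and Krt27 on the minus strand at chr11:99351069-99351368. Krt32 lies on the minus strand at chr11:100088220-100088519, Krt2 on the minus strand at chr15:101818120-101818419 and Krt90 on the minus strand at chr15:101562901-101563200.
Krt71: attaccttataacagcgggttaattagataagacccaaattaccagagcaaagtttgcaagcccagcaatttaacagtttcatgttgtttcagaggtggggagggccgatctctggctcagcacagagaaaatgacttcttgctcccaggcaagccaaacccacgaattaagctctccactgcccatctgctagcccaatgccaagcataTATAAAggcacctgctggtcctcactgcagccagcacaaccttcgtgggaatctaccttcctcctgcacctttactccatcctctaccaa
Krt25: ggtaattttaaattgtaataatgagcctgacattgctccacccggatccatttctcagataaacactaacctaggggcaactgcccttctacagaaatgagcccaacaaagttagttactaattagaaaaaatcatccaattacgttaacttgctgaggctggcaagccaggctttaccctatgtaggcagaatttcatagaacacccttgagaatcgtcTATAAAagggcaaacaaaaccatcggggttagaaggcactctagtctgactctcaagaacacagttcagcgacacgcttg
Krt27: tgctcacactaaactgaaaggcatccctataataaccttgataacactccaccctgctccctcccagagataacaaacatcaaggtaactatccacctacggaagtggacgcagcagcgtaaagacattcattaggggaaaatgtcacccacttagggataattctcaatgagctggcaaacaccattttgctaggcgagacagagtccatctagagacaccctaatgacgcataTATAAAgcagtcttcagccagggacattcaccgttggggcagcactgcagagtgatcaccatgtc
Krt32: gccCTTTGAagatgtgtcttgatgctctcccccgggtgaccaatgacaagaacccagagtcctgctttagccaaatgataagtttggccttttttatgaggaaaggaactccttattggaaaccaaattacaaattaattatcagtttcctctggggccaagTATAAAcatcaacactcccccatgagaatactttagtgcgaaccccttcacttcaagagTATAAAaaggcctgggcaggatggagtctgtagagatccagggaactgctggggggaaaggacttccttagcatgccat
Krt2: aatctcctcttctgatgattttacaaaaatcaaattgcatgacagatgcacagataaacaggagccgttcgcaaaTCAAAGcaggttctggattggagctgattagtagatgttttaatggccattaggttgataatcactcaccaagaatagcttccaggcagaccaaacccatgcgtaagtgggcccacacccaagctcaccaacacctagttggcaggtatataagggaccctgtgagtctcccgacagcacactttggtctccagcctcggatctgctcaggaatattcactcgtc
Krt90: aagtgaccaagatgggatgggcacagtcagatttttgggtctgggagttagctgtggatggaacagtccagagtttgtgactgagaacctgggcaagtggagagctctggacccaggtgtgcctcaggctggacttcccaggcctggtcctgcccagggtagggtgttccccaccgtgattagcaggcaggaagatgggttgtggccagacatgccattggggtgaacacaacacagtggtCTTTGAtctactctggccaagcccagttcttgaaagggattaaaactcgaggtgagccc

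TATAAA stood in each of the 4 hair follicle promoters shown, with its first base 40, 30 and 15 bases before the start in Krt71, Krt25 and Krt27, and 88 and 29 bases before it in Krt32. Neither Krt2 nor Krt90 held these exact letters within these windows. No variant of the TATA box was searched, so a stretch such as tatataag in the Krt2 sequence was not counted. Over all inner root sheath and hair shaft keratins with an entry, 12 of 15 promoters held TATAAA (80.0%), against 18 of 36 promoters of keratin members (50%) and 4473 of 32851 promoters of all genes (13.6%). CTTTGA stood once each in the promoters of Krt2, Krt32 and Krt90. It was found in 5 of 15 promoters of the inner root sheath and hair shaft keratins (33.3%), 8 of 36 promoters of members (22.2%) and 5257 of 32851 promoters of all genes (16.0%). These are matches of letters in a window, and binding was not measured.

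The transcript levels followed a steep order that was alike in the 3 strains. Per kilobase of transcript, Krt13 and Krt4 averaged 21567 and 14786 CPM (library counts scaled to a common total, described with the processing), followed by Krt10 at 3256, Krt14 at 1906, Krt5 at 1834 and Krt76 at 1363 CPM per kilobase. The oral suprabasal keratins held 64.7% to 80.3% of all keratin CPM in a library, the epidermal suprabasal keratins 6.69% to 14.5% and the basal keratins 6.98% to 10.6%. The inner root sheath and hair shaft keratins together held 1.01% to 5.63%. These shares are of counts, to which longer transcripts give more. By average, 10 members stood at or above 1000 CPM, 25 at or above 100 CPM, and 6 under 1 CPM. Summed per kilobase, type I transcripts exceeded type II transcripts by a factor of 1.39 to 1.57. This order and factor hold for the members only. The rule leaves out the type II genes Krt6a and Krt6b, at 1416 and 551 CPM per kilobase. It also leaves out the type I genes Krt33a and Krt33b, at 81.9 and 66.2 CPM per kilobase. Krt20 and Krt88 did not pass the filter. Krt20, a keratin of Merkel cells and gut, had 11 counts over the B6, 14 over the Tac111 and 8 over the Tac146 libraries, and Krt88 had 3, 2 and 2.

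**Figure D1:**
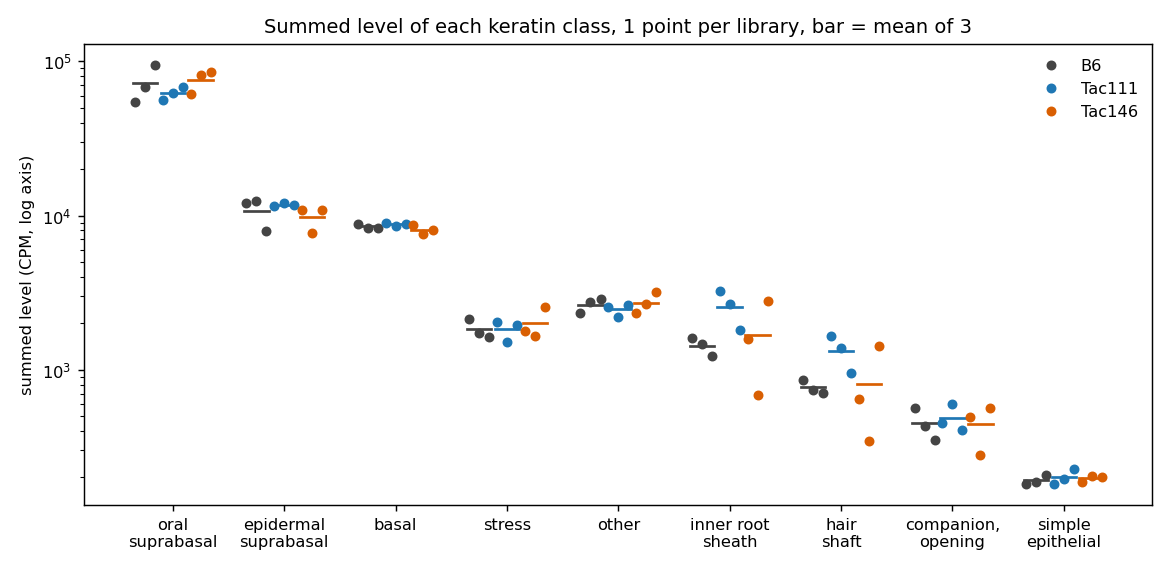
Summed level of each keratin class (CPM, log axis) in the 3 strains, with 1 point per library and a bar at the mean of 3 libraries. The inner root sheath and hair shaft sums spread most, from 688 to 3231 CPM and from 346 to 1662 CPM, while the basal sum stayed between 7536 and 8975 CPM.

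Few keratins differed between strains by edgeR's quasi-likelihood test, with Benjamini-Hochberg adjustment over all 16523 genes tested and a threshold of 0.05. In Tac111 against B6, Krt7 and Krt32 were higher, 2 of 48 members (4.17%), against 3.81% of all genes (1.02% higher and 2.8% lower). In Tac146 against B6, Krt90 was higher, 1 of 48 (2.08%), against 0.303% of all genes (0.194% higher and 0.109% lower). In Tac111 against Tac146, Krt2, Krt19 and Krt32 were higher and Krt90 lower, 4 of 48 (8.33%), against 8.89% of all genes (2.62% higher and 6.27% lower). In Tac111 against B6 and in Tac111 against Tac146 the share called among keratins lay near the share over all genes, so with all 9 libraries these counts are no result about the family, and 1 gene stands behind the count in Tac146 against B6. The comparisons share libraries, since each strain stands in 2 of them. Without Tac146 replicate 4, the counts of members called were 5, 0 and 15 in the 3 comparisons, where 5.72%, 0.263% and 5.24% of all genes were called, and apart from Krt77 the added members were follicle keratins.

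Counted without a test, the libraries of Tac111 and B6 did not overlap for 20 of 48 members, 19 higher in Tac111 and 1 lower, where 13.7% of all genes lay higher and 15.8% lower without overlap. Of those 19 members, 14 were inner root sheath or hair shaft keratins, which moved together from library to library and are not separate observations. For Tac146 against B6 the count was 2 higher (Krt7 and Krt90) and 2 lower (Krt2 and Krt5), against 6.36% and 6.29% of all genes. For Tac111 against Tac146 it was 8 higher and 3 lower, against 17.1% and 18.4%. The median log2 fold change of the 48 members was 0.46, 0.07 and 0.35 in the 3 comparisons, beside 0.02, 0.01 and 0.02 over all genes tested. It was 0.83, 0.18 and 0.65 for the 21 inner root sheath and hair shaft keratins. For the other 27 tested members it was 0.04, -0.04 and 0.15, with 16 positive and 11 negative in Tac111 against B6.

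**Figure D2:**
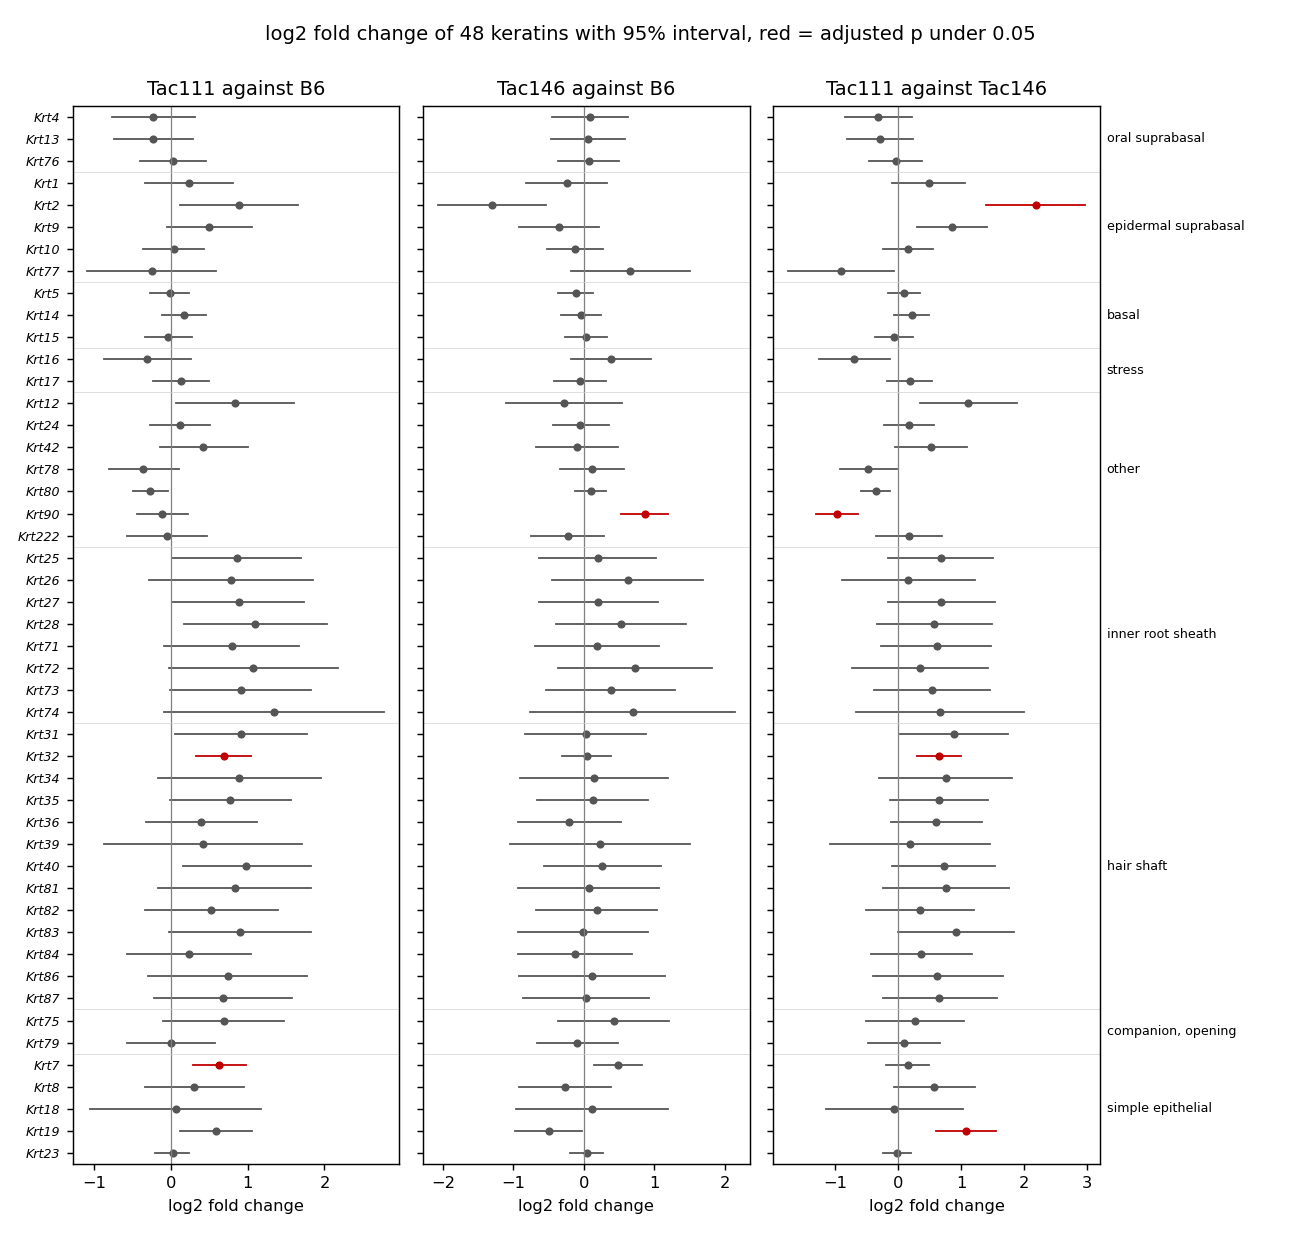
Log2 fold change (x axis) of the 48 tested keratins (rows, grouped by class) in the 3 comparisons, with the approximate 95% interval as a line and members with an adjusted p under 0.05 in red. Estimates of the hair keratins lie to the right of 0 in Tac111 against B6 (median 0.83), but most of their intervals are wide and many include 0. Krt5, Krt14 and Krt15 sit near 0 with narrow intervals.

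The oral pair Krt4 and Krt13, which fills the suprabasal cells of non-cornifying mucosa, gave the highest keratin levels and did not separate the strains. Krt4 stood at 23168, 30829 and 43352 CPM in B6, 24727, 29053 and 29272 CPM in Tac111 and 27869.8, 36772 and 38797 CPM in Tac146. Krt13 stood at 28292, 34189 and 48355 CPM in B6, 27992, 31313 and 35222 CPM in Tac111 and 30489, 42242 and 42951 CPM in Tac146. The B6 libraries alone spanned nearly the whole range, with replicate 1 low and replicate 3 high, and the strains overlapped for both genes. The pair kept step, since the ratio of Krt13 to Krt4 per kilobase ran only from 1.39 to 1.57 over the 9 libraries. The log2 fold change of Krt4 was -0.23 ± 0.24 (SE) in Tac111 against B6, with an approximate 95% interval of -0.77 to 0.31 and an adjusted p of 0.596 by edgeR, and -0.32 ± 0.24 in Tac111 against Tac146, with an interval of -0.85 to 0.22 and an adjusted p of 0.39. Krt13 had log2 fold changes of -0.23, 0.06 and -0.29 in the 3 comparisons. Krt76, a type II keratin of the cornifying oral lining such as the palate, stood at 2938, 3177 and 3144 CPM in B6, 3490.3, 2293 and 3624 CPM in Tac111 and 2934, 2764 and 4003 CPM in Tac146, with no strain apart from another. None of the 3 oral keratins passed edgeR's test in any comparison, none had an unadjusted p under 0.05, and DESeq2 and limma called none.

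The epidermal pair Krt1 and Krt10, which replaces Krt5 and Krt14 as skin keratinocytes leave the basal layer, was present at a lower level. Krt1 stood at 3219, 3274 and 1769 CPM in B6, 3037, 3877 and 2818 CPM in Tac111 and 2609.8, 1631 and 2742 CPM in Tac146. Krt10 stood at 7509, 7856 and 5474 CPM in B6, 7080.3, 6932 and 7366 CPM in Tac111 and 6620.1, 5148 and 7371 CPM in Tac146. Both were lowest in Tac146 replicate 3 and next lowest in B6 replicate 3, and B6 replicate 3 was also the library with the highest Krt4 and Krt13. The log2 fold change of Krt1 in Tac111 against Tac146 was 0.48 ± 0.26 (adjusted p = 0.235, edgeR), although the libraries of these strains did not overlap. Per kilobase, Krt1 ran from 0.3 to 0.664 of Krt5, and Krt10 from 2.67 to 4.72 times Krt1.

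**Figure D3:**
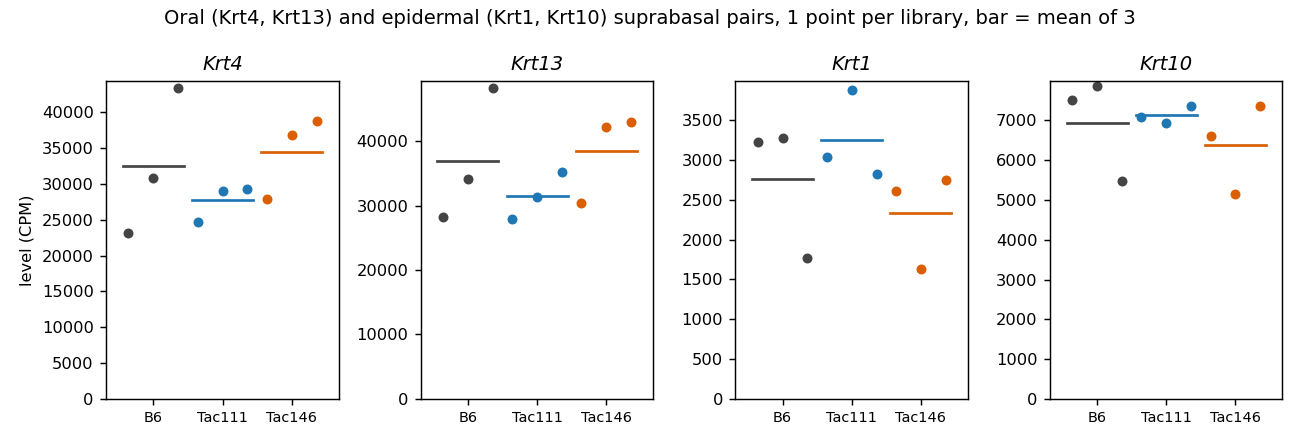
Level (CPM) of the oral pair Krt4 and Krt13 and the epidermal pair Krt1 and Krt10 in the 3 strains, with 1 point per library and a bar at the mean of 3. The points of the 3 strains overlap for Krt4, Krt13 and Krt10, and in B6 the library with the highest Krt4 and Krt13 has the lowest Krt1 and Krt10.

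Krt2, a type II keratin of the upper suprabasal epidermis that pairs with Krt10, gave the largest difference among the members. The gene lies on the minus strand at chr15:101810689-101818169 (GENCODE M21, GRCm38). Its level was 569, 696 and 279 CPM in B6, 1139, 864 and 846 CPM in Tac111 and 259.6, 117 and 250.4 CPM in Tac146. Every Tac111 library lay above every B6 library, and every Tac146 library below. Krt2 was 4.54-fold higher in Tac111 than in Tac146 (log2 fold change 2.18 ± 0.36, adjusted p = 0.00642, edgeR), and the call held in 19 of 19 alternative analyses, with adjusted p from 4.31e-06 to 0.0266. Against B6, it had a log2 fold change of 0.88 ± 0.34 in Tac111 (adjusted p = 0.18) and -1.30 ± 0.35 in Tac146 (adjusted p = 0.34), neither of which passed. Krt1 varied less, so Krt2 per kilobase was 0.267 to 0.45 of Krt1 in Tac111, 0.189 to 0.255 in B6 and 0.0863 to 0.119 in Tac146.

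Markers of the sebaceous gland, an appendage of haired skin, differed between Tac111 and Tac146 as well. All 9 sebaceous markers had a positive log2 fold change in Tac111 against Tac146, with a median of 0.75 beside 0.02 over all genes, and 3 of 9 were called, against 8.89% of all genes. Awat2, a wax synthase, had a log2 fold change of 1.69 (adjusted p = 0.0251, edgeR), Scd3, a fatty acid desaturase, 1.37 (adjusted p = 0.0261) and Awat1, a second acyltransferase, 1.51 (adjusted p = 0.0336). Against B6, their median in Tac111 was 0.08, none passed edgeR's test, 1 had an unadjusted p under 0.05, and DESeq2 and limma called none. In Tac146 against B6 all 9 were negative with a median of -0.53, and 4 lay lower without overlap (44.4%, against 6.29% of all genes). There none passed edgeR's test, 5 had an unadjusted p under 0.05, DESeq2 called 1 and limma called 0. Among all 16523 genes tested, 1150 had an unadjusted p under 0.05 in that comparison and DESeq2 called 126. The summed marker level was 2209, 1419 and 1149.9 CPM in B6, 1227, 2157 and 1346 CPM in Tac111 and 1602, 969.7 and 796 CPM in Tac146. The strains overlapped in the sum, and within Tac111 it was lowest in replicate 1, the library with the highest Krt2. Their part in the Krt2 difference was not tested.

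Krt77 and Krt9 did not pass the test. Krt77, an epidermal type II keratin, stood at 752, 549.8 and 379 CPM in B6, 334, 443 and 632 CPM in Tac111 and 1351, 858 and 441 CPM in Tac146, with Tac146 replicate 2 far above its own replicates, and its log2 fold change in Tac111 against Tac146 was -0.91 ± 0.38 (adjusted p = 0.138, edgeR). Without Tac146 replicate 4 that value was -1.23 (adjusted p = 0.0456), and Krt77 was called. Krt9, the keratin of palm and sole skin, was near 1 CPM, at 1.6 to 1.88 CPM in Tac111 and 0.645 to 1.13 CPM in Tac146, with a log2 fold change of 0.85 ± 0.25 between them (adjusted p = 0.0566, edgeR). It was called in 3 of 19 alternatives, among them DESeq2 (adjusted p = 0.0396) and limma.

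The basal keratins were the steadiest class. Krt5 stood at 4123, 4212 and 4136 CPM in B6, 4270.0, 4092 and 3919 CPM in Tac111 and 4119.7, 3616 and 3780.5 CPM in Tac146, and Krt14 at 3539, 2924 and 2954 CPM in B6, 3634, 3393 and 3545 CPM in Tac111 and 3199, 2687 and 3251 CPM in Tac146. Krt15, a basal keratin also known from follicle stem cells, ran over 1021 to 1414 CPM. The highest library exceeded the lowest by 1.18-fold for Krt5, 1.35-fold for Krt14 and 1.38-fold for Krt15, beside a median of 3.25-fold over the 48 tested members. The approximate 95% intervals of the log2 fold change of Krt5 were -0.27 to 0.23 in Tac111 against B6 and -0.36 to 0.13 in Tac146 against B6, narrower than those of the 3 oral keratins. The Tac146 libraries of Krt5 lay just below all B6 libraries, and the Tac111 libraries of Krt14 just above all Tac146 libraries. Krt14 to Krt5 per kilobase ran from 0.898 to 1.17. No basal keratin passed edgeR's test in any comparison, none had an unadjusted p under 0.05, and DESeq2 and limma called none.

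The stress keratins Krt16 and Krt17, type I chains induced in wounded and inflamed epithelium, were expressed in every library and did not pass the test. Krt16 stood at 795, 579.5 and 580.1 CPM in B6, 606, 367 and 605 CPM in Tac111 and 632, 744 and 1179 CPM in Tac146, with Tac146 replicate 4 highest and Tac111 replicate 2 lowest. It was 1.62-fold lower by estimate in Tac111 than in Tac146 (log2 fold change -0.70 ± 0.26, adjusted p = 0.0995, edgeR), with no overlap between the libraries. DESeq2 called this difference (adjusted p = 0.0324), as did edgeR with no filter on low counts, so the call depends on the tool and the filter. Of the 50-base stretches of Krt16, 37.6% also occur in another gene, most often Gm11597, which had at most 3 counts in any library. Of those of Krt14, 13.9% occur in another gene, most often Krt16, so the level of Krt16 is less certain. Krt17 stood at 1352, 1162 and 1054 CPM in B6, 1420.5, 1143 and 1333 CPM in Tac111 and 1139.5, 909 and 1386 CPM in Tac146 and overlapped between all strains. Krt16 to Krt17 per kilobase was 0.318 to 0.45 in Tac111, 0.494 to 0.583 in B6 and 0.55 to 0.843 in Tac146. Their type II partners lie outside the symbol rule. Krt6a stood at 3392, 3810.2 and 3667 CPM in B6, 3099.5, 2668 and 2874 CPM in Tac111 and 3008, 3236 and 4468 CPM in Tac146 and was not called. Krt6b stood at 1244, 1222 and 1255 CPM in B6, 960.3, 761 and 899 CPM in Tac111 and 1184, 1389.6 and 2160.3 CPM in Tac146 and was lower in Tac111 than in Tac146 (log2 fold change -0.85 ± 0.20, adjusted p = 0.0291). Of the 50-base stretches of Krt6b, 50.1% also occur in another gene, mostly Krt6a, so the split of reads between these 2 genes is uncertain.

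Among the keratins of simple epithelia, Krt7 and Krt19 passed a test, each at a low level. Krt7, a type II keratin of ducts and glands at chr15:101411043-101430313 on the plus strand, stood at 6.3, 7.23 and 7.02 CPM in B6, 8.59, 10 and 13.2 CPM in Tac111 and 9.97, 8.99 and 9.78 CPM in Tac146. B6 lay below the other strains without overlap. Krt7 was 1.55-fold higher in Tac111 than in B6 (log2 fold change 0.63 ± 0.15, adjusted p = 0.0499, edgeR). That call sits at the threshold and held in 7 of 19 alternatives, over which the adjusted p ran from 0.00905 to 0.134. It was lost without any single B6 library, without Tac111 replicate 2 or 3 and without Tac146 replicate 2 or 3, with adjusted p of 0.126, 0.127 and 0.134 for B6, 0.11 and 0.132 for Tac111, and 0.0633 and 0.0658 for Tac146. In Tac146 against B6 the log2 fold change was 0.49 ± 0.15 (adjusted p = 0.481).

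Krt19, the type I keratin of ducts, of the follicle bulge and of some basal oral cells, lies at chr11:100140810-100148665 on the minus strand. Its level was 5.46, 4.17 and 8.01 CPM in B6, 8.46, 8.23 and 9.74 CPM in Tac111 and 3.91, 4.85 and 3.83 CPM in Tac146. The Tac111 libraries lay above all Tac146 libraries and above all B6 libraries, B6 replicate 3 coming closest to Tac111, while B6 and Tac146 overlapped. Krt19 was 2.11-fold higher in Tac111 than in Tac146 (log2 fold change 1.07 ± 0.21, adjusted p = 0.0165, edgeR), and 18 of 19 alternatives kept the call, the exception being the fit without Tac111 replicate 3 (adjusted p = 0.0666). Against B6, the log2 fold change in Tac111 was 0.58 ± 0.21 (adjusted p = 0.154), and 0.86 without B6 replicate 3, where it was called (adjusted p = 0.0442). Aqp5, a water channel of glands, moved the same way, at 3.32, 6.29 and 6.82 CPM in B6, 16.4, 19.4 and 27.5 CPM in Tac111 and 1.39, 1.01 and 2.29 CPM in Tac146. Of the 9 gland markers, 3 passed the filter on low counts, and all 3 were called in Tac111 against Tac146, 1 higher (Aqp5) and 2 lower. Over all genes tested, 2.62% were called higher and 6.27% lower. Lpo, lactoperoxidase, had a log2 fold change of -5.20 (adjusted p = 0.000207) and Bhlha15, a factor of secretory cells, -2.32 (adjusted p = 0.0245). Lpo had 234, 214 and 388 counts in Tac146 and 4, 3 and 10 in Tac111, and Bhlha15 24, 21 and 36 against 8, 1 and 3. Both owed their pass of the filter to Tac146, where they are high, so the share called among the markers kept is no result about the list. The summed gland marker level, in Tac111 nearly all Aqp5, was 4.39 to 7.58 CPM in B6, 17 to 28 CPM in Tac111 and 7.32 to 11.8 CPM in Tac146. The secretory genes Dcpp1 and Smr3a were at 0 counts in all 9 libraries. The part of gland cells in the Krt19 difference was not tested.

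Krt23 stood at 161 to 202 CPM and differed by no more than 1.26-fold between any 2 libraries. Krt8 and its partner Krt18, the founding pair of simple epithelia and of Merkel cells, stood at 0.553 to 1.19 CPM and 0.382 to 1.26 CPM. The 5 Merkel cell markers summed to 28.6 to 39.6 CPM, and none of the 4 tested passed edgeR's test in any comparison, none had an unadjusted p under 0.05 and DESeq2 called none.

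**Figure D4:**
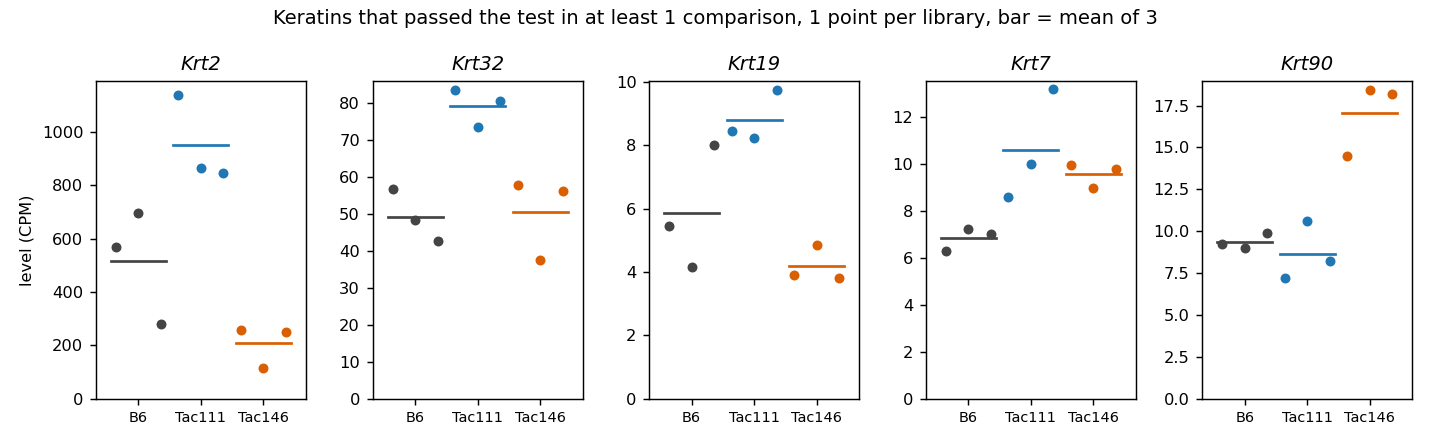
Level (CPM, separate y axes from 0) of the 5 keratins that passed the test in at least 1 comparison, with 1 point per library and a bar at the mean of 3. Krt2, Krt32 and Krt19 are highest in Tac111, Krt90 is highest in Tac146 at 14.5 to 18.4 CPM, and Krt7 is lowest in B6 at 6.3 to 7.23 CPM.

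The keratins of the hair follicle varied most between libraries, and they varied as a block. The 8 inner root sheath keratins, which mould the growing hair, are the type II chains Krt71, Krt72, Krt73 and Krt74 and the type I chains Krt25, Krt26, Krt27 and Krt28, and Krt74 is annotated as a pseudogene in this mouse annotation. Krt71 stood at 706, 682 and 560.4 CPM in B6, 1432, 1182 and 758 CPM in Tac111 and 674, 309 and 1233 CPM in Tac146. Krt25 stood at 372, 342 and 296 CPM in B6, 736, 662 and 438 CPM in Tac111 and 384, 159 and 615 CPM in Tac146, and Krt27 at 329, 280.1 and 237 CPM in B6, 642, 528 and 392 CPM in Tac111 and 300.1, 137 and 538 CPM in Tac146. In Tac111, replicate 1 was highest and replicate 3 lowest, while Tac146 held both the lowest library of all (replicate 3) and one of the highest (replicate 4). The type I to type II balance stayed put, with Krt27 to Krt71 per kilobase from 0.579 to 0.729 and Krt25 to Krt71 from 0.548 to 0.636. Krt73 ran over 29.6 to 148 CPM and Krt28 over 18.7 to 102 CPM, and Krt26, Krt72 and Krt74 reached 89.9, 93.7 and 1.67 CPM at most.

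The 13 hair shaft keratins, the cysteine-rich chains of cortex and cuticle, showed the same library pattern. Krt81 stood at 136, 116 and 116 CPM in B6, 275, 224 and 154 CPM in Tac111 and 87.9, 50.6 and 247 CPM in Tac146. Krt83 stood at 123, 109 and 104 CPM in B6, 260.2, 219.7 and 149 CPM in Tac111 and 84.2, 46.5 and 203 CPM in Tac146, and Krt86 at 123, 117 and 117 CPM in B6, 252, 205 and 139 CPM in Tac111 and 84.9, 48.9 and 253 CPM in Tac146. Krt34, a type I cortex keratin, stood at 110.8, 94.8 and 90.6 CPM in B6, 226, 197 and 126 CPM in Tac111 and 70.6, 40.4 and 215 CPM in Tac146. The Tac111 libraries of these 4 genes lay above all B6 libraries, while Tac146 replicate 3 lay below and Tac146 replicate 4 above them. Krt31 ran over 28.6 to 156 CPM, Krt35 over 26.7 to 121 CPM and Krt87 over 42.5 to 196 CPM. Krt36, Krt39, Krt40, Krt82 and Krt84 were lower, from 1.72 CPM in the lowest library of Krt39 to 34.5 CPM in the highest of Krt82. Of the 50-base stretches of these genes, 43.3% of Krt86, 37.7% of Krt81, 33.1% of Krt34 and 22.1% of Krt83 occur in another gene, so their separate levels are less certain than the class sum. Reads of Krt87 may be shared with Gm49425 (36.9%).

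Krt32, a type I keratin of the hair cuticle at chr11:100080848-100088226 on the minus strand, was the hair keratin that passed the test. It stood at 56.6, 48.2 and 42.7 CPM in B6, 83.5, 73.4 and 80.4 CPM in Tac111 and 57.7, 37.5 and 56.2 CPM in Tac146. The Tac111 libraries lay above all others, and B6 and Tac146 overlapped. Krt32 was 1.61-fold higher in Tac111 than in B6 (log2 fold change 0.69 ± 0.16, adjusted p = 0.0405, edgeR) and 1.57-fold higher than in Tac146 (0.65 ± 0.16, adjusted p = 0.0359). These calls held in 14 and 12 of 19 alternatives. Against B6, the adjusted p was 0.151 without B6 replicate 2, 0.156 without B6 replicate 3, and 0.096, 0.091 and 0.127 without Tac111 replicates 1, 2 and 3. Against Tac146, it was 0.061 without B6 replicate 2, 0.0753, 0.0705 and 0.108 without Tac111 replicates 1, 2 and 3, and 0.0739 without Tac146 replicate 3. Its estimate was not larger than that of its class, but its libraries agreed more closely, with a highest-to-lowest ratio of 2.22 beside a median of 4.92 for the class. Gm11571, on the opposite strand within the gene, had at most 21 counts in any library.

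Over the 21 inner root sheath and hair shaft keratins together, all had a positive log2 fold change in Tac111 against B6, from 0.24 to 1.34 with a median of 0.83, beside a median of 0.02 over all genes tested. Of these, 14 did not overlap between the strains, 6 had an unadjusted p under 0.05 and 1 (Krt32) passed. Over all 16523 genes tested, 13.7% lay higher without overlap, 3609 genes had an unadjusted p under 0.05 and 3.81% passed. Fitting only the 6 libraries of these strains, without the spread of Tac146, called 13 of the 21, all higher in Tac111, where 5.47% of all genes were called. Leaving out Tac146 replicate 4 called 4, where 5.72% of all genes were called, and a replicate block, in which Tac146 replicate 4 carries no weight, called 15 (5.29% of all genes). In Tac146 against B6 the median was 0.18, 18 were positive, and none passed edgeR's test, none had an unadjusted p under 0.05, and DESeq2 and limma called none. With limma 9 of the 21 were positive, so that direction is not settled. In Tac111 against Tac146 all 21 were positive with a median of 0.65, yet only 1 did not overlap and 1 (Krt32) passed. That comparison depends on Tac146 replicate 4. Without it the median was 1.17 and 11 were called higher in Tac111 (5.24% of all genes were called). Then 17 of 21 did not overlap, but 3 against 2 libraries separate more easily than 3 against 3. The share over all genes was not counted for that setting. The median of Tac146 against B6 turned to -0.40 without Tac146 replicate 4, with all 21 negative and none called by edgeR. Without Tac146 replicate 3 that median was 0.53, so 1 library decides the direction of the hair keratins between Tac146 and B6. Leaving out Tac111 replicate 1 lowered the medians of Tac111 to 0.64 against B6 and 0.43 against Tac146, and leaving out Tac146 replicate 3 lowered the latter to 0.29 with none called by edgeR.

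The spread within Tac146 was larger than the difference between strain means. Tac146 replicate 3 held the lowest level of all 21 genes, and the highest level lay in Tac111 replicate 1 for 15 genes and in Tac146 replicate 4 for 6. Between Tac146 replicates 4 and 3 the 21 genes differed by 1.5-fold to 9.09-fold, with a median of 3.99-fold, between Tac111 replicates 1 and 3 by a median of 1.79-fold, and between the highest and lowest B6 library by a median of 1.35-fold. Summed, the 21 transcripts stood at 2457, 2201 and 1933 CPM in B6, 4892, 4055 and 2744 CPM in Tac111 and 2218, 1034 and 4200.4 CPM in Tac146. Mitochondrial transcripts, a sign of RNA quality, held 6.08% to 7.5% of counts in Tac111, above every B6 library (5.38% to 6.02%), with Tac111 replicate 1 highest, and 5.22% to 6.1% in Tac146, with replicate 4 lowest. Their part in the hair keratin levels was not tested. The mean of Tac111 was 1.77 times that of B6, and the mean of Tac146 1.13 times, with the Tac146 libraries both below and above all B6 libraries.

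**Figure D5:**
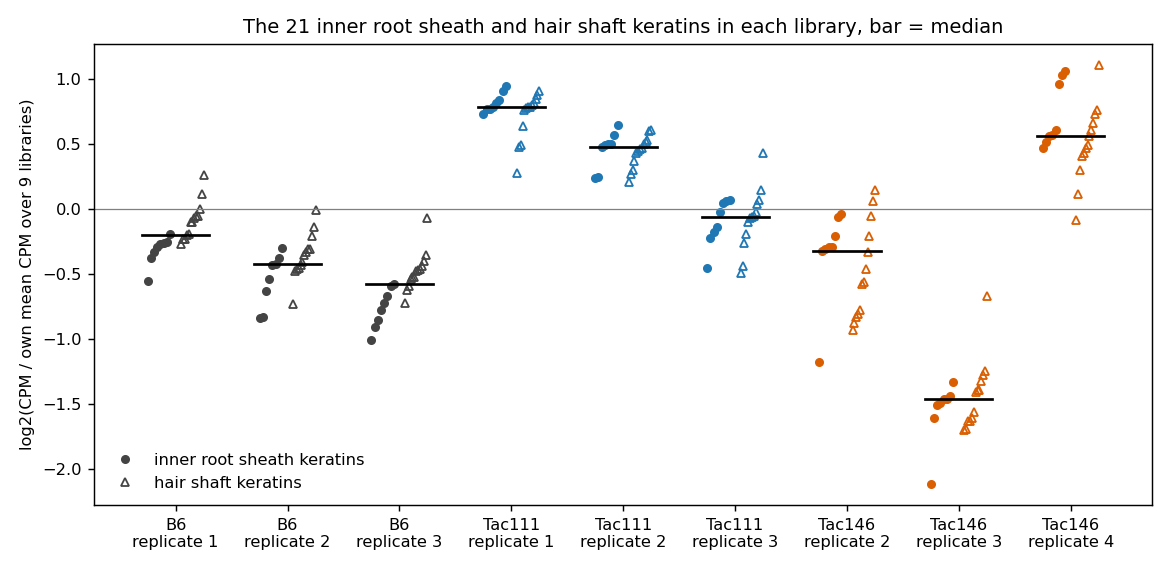
Level of each of the 21 inner root sheath (filled circles) and hair shaft (open triangles) keratins in each library, as log2 of its CPM over its own mean of 9 libraries, with a bar at the median. Within a library the genes shift together, with medians of 0.79 in Tac111 replicate 1, 0.56 in Tac146 replicate 4 and -1.46 in Tac146 replicate 3, and the medians of the 3 B6 libraries all lie below 0.

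Summed, other follicle genes were highest and lowest in the same Tac111 and Tac146 libraries as the hair keratins, but single members differed. The 19 regulators and matrix genes of the follicle summed to 1078, 1133 and 1013 CPM in B6, 2211, 1842 and 1255 CPM in Tac111 and 1126, 751 and 2313 CPM in Tac146. Tchh, trichohyalin of the inner root sheath, made up much of the sum, at 309, 455 and 336 CPM in B6, 912, 727 and 411 CPM in Tac111 and 385, 216 and 969 CPM in Tac146. Hoxc13 and Lef1, transcription factors of the hair matrix, were highest within Tac146 in replicate 2 (15.6 and 5.95 CPM) and not in replicate 4, and so was Gata3, a factor of the inner root sheath. Shh, a signal of the matrix, was lowest within Tac111 in replicate 1, and Foxe1 highest there in replicate 3. Of the 19, 17 had a positive log2 fold change in Tac111 against B6, with a median of 0.69. Msx2, a homeobox factor of the hair matrix, had a log2 fold change of 0.94 ± 0.24 (adjusted p = 0.0638, edgeR), S100a3, a calcium-binding protein of the cuticle, 1.21 ± 0.36 (adjusted p = 0.0937) and Lgr5, a stem cell receptor, 0.61 ± 0.25 (adjusted p = 0.19). None of the 19 passed edgeR's test in that comparison, 6 had an unadjusted p under 0.05, DESeq2 called 1 and limma called 0. Among all 16523 genes tested, 3609 had an unadjusted p under 0.05 there and DESeq2 called 1161. In Tac111 against Tac146, 2 of 19 (10.5%) were called, near the 8.89% of all genes, so the count is no result about the list. They were the gasdermins Gsdma (log2 fold change -0.64, adjusted p = 0.0319, edgeR) and Gsdma3 (-1.43, adjusted p = 0.0469). Both were lower in Tac111, opposite in sign to the hair keratins. These calls held in 11 of 19 and 5 of 18 alternatives. Melanocyte markers, which also sit in hair follicles, summed to 6.25, 4 and 4.7 CPM in B6, 14.8, 14 and 9.13 CPM in Tac111 and 19.7, 4.05 and 5.33 CPM in Tac146, so within Tac146 they were high in replicate 2 and not in replicate 4. Of 5 tested, 1 (Mlana) was higher in Tac111 than in B6 (log2 fold change 2.16, adjusted p = 0.0443), against 3.81% of all genes, and that call held in 11 of 18 alternatives. Mlana had 28, 27 and 25 counts in Tac111 and 6, 2 and 11 in B6, and owed its pass of the filter on low counts to Tac111. How much follicle each biopsy held was not measured, and its part in the hair keratin levels was not tested.

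Next to the shaft and sheath, Krt75, the type II keratin of the companion layer, stood at 68.6, 67.3 and 54.3 CPM in B6, 135, 109 and 62.1 CPM in Tac111 and 76, 45.4 and 134 CPM in Tac146, with the same high and low libraries as the hair keratins. Krt79, which marks the funnel at the follicle opening, stood at 495, 362 and 296 CPM in B6, 317, 488 and 345 CPM in Tac111 and 419.7, 233 and 426 CPM in Tac146. Its order of libraries was different, with B6 replicate 1 and Tac111 replicate 2 highest. Those 2 libraries also held the highest sums of sebaceous markers, 2209 and 2157 CPM. Neither gene passed edgeR's test in any comparison, neither had an unadjusted p under 0.05, and DESeq2 and limma called neither.

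Krt90, a type II keratin gene at chr15:101552356-101562950 on the minus strand, was higher in Tac146 than in both other strains. It stood at 9.21, 8.97 and 9.9 CPM in B6, 7.18, 10.6 and 8.2 CPM in Tac111 and 14.5, 18.4 and 18.2 CPM in Tac146. The 3 Tac146 libraries lay above all 6 others, while B6 and Tac111 overlapped. Krt90 was 1.82-fold higher in Tac146 than in B6 (log2 fold change 0.86 ± 0.15, adjusted p = 0.0461, edgeR), a call that held in 8 of 19 alternatives with adjusted p from 9.34e-05 to 0.276. The adjusted p was 0.146, 0.276 and 0.146 without B6 replicates 1, 2 and 3, 0.0921 without Tac111 replicate 3, and 0.193 and 0.111 without Tac146 replicates 3 and 4. It was lower in Tac111 than in Tac146 (log2 fold change -0.98 ± 0.15, adjusted p = 0.00428), and this call held in 19 of 19. In Tac111 against B6 the log2 fold change was -0.12 ± 0.15, with an approximate 95% interval of -0.45 to 0.22. The antisense gene Gm44393 had no count in any library, and no 50-base stretch of Krt90 occurs in another annotated transcript.

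Krt24, Krt78 and Krt80 are keratins of stratified epithelia at middle levels. Krt24, a type I keratin, stood at 1117, 1257 and 1187 CPM in B6, 1408, 988 and 1469 CPM in Tac111 and 1006, 1009 and 1432 CPM in Tac146, with all strains overlapping. Krt78, a type II keratin of differentiating epithelium, stood at 541, 774 and 942 CPM in B6, 507, 634 and 620.5 CPM in Tac111 and 627, 909 and 913 CPM in Tac146, and was high where Krt4 was high, in B6 replicate 3 and Tac146 replicates 3 and 4. Krt80, a type II keratin found near desmosomes, stood at 647, 693 and 720.1 CPM in B6, 614, 555 and 543 CPM in Tac111 and 674, 723 and 807 CPM in Tac146. Tac111 lay lowest without overlap, and the log2 fold change of Krt80 was -0.36 ± 0.10 in Tac111 against Tac146 (adjusted p = 0.0515, edgeR), just outside the threshold and called in 4 of 19 alternatives, among them DESeq2 and the fit without Tac146 replicate 2 (adjusted p = 0.0437). Gm35853 and Mir1941 overlap Krt80 on the opposite strand, and the first had 89 to 190 counts a library. Krt12, the keratin of the cornea, Krt42 and Krt222 ran from 0.215 to 2.15 CPM and were not called.

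Keratin filaments end on desmosomes, the junctions between keratinocytes, and on hemidesmosomes, which hold basal cells to the basement membrane. Of 17 desmosome and plakin genes, 5 were lower in Tac111 than in Tac146 and none higher, and the median log2 fold change was -0.39 beside 0.02 over all genes, of which 6.27% were lower and 2.62% higher. Their summed level was 12458, 14059.5 and 15434 CPM in B6, 12148, 11909.8 and 11416 CPM in Tac111 and 13047, 15283 and 18301 CPM in Tac146, highest in Tac146 replicate 4, the library with the lowest muscle and fibroblast sums, whose part in this difference was not tested. Dsg3, the desmoglein of deep and oral layers, had a log2 fold change of -0.87 ± 0.17 (adjusted p = 0.0161, edgeR), Eppk1, epiplakin, -0.82 ± 0.20 (adjusted p = 0.0357) and Dsg1b, a desmoglein of upper layers, -0.94 ± 0.24 (adjusted p = 0.039). These calls held in 16, 12 and 11 of 19 alternatives. Against B6, the 17 genes had a median of -0.29 in Tac111 and 0.13 in Tac146, and none passed edgeR's test. An unadjusted p under 0.05 was found for 6 of them in Tac111 and 1 in Tac146, DESeq2 called 3 and 0, and limma called 0 in both. Among all 16523 genes tested, the unadjusted counts were 3609 and 1150, and DESeq2 called 1161 and 126. Of 9 hemidesmosome genes, 2 were lower in Tac111 than in Tac146, against 6.27% of all genes, Lama3, a laminin chain (-0.79 ± 0.20, adjusted p = 0.0422), and Col17a1, a transmembrane collagen (-0.39 ± 0.11, adjusted p = 0.0484). These calls held in 10 and 8 of 19 alternatives. In Tac111 against B6 all 9 were negative with a median of -0.36, and 6 lay lower without overlap (66.7%, against 15.8% of all genes). There none passed edgeR's test, 5 had an unadjusted p under 0.05, DESeq2 called 3 and limma called 0. The summed level was 2069.6, 1790 and 1521 CPM in Tac111 and 2195 to 2355 CPM in B6. Within Tac111, replicate 3 was lowest for every gene of the list but Cd151. The part of RNA quality or transcript length in the desmosome and hemidesmosome differences was not tested. The basal keratins that attach to hemidesmosomes were not called in Tac111 against Tac146, with log2 fold changes of 0.09 for Krt5 and 0.21 for Krt14.

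Of 16 regulators of keratin genes and filaments, 2 (12.5%) were lower in Tac111 than in Tac146 and none higher. Over all genes 6.27% were lower and 2.62% higher, and a count of 2 is too small to be a result about the regulators. By estimate 14 of the 16 were negative, with a median log2 fold change of -0.30 beside 0.02 over all genes. Without overlap of libraries, 10 lay lower and 1 higher (62.5% and 6.25%), against 18.4% and 17.1% of all genes. Klf4, a zinc-finger factor of differentiating epithelium, stood at 355, 383 and 369 CPM in B6, 283, 296 and 309.6 CPM in Tac111 and 399, 397 and 438 CPM in Tac146 (log2 fold change -0.47 ± 0.08, adjusted p = 0.0105, edgeR). Tac111 lay below both other strains without overlap. Maf, a leucine-zipper factor, had a log2 fold change of -0.60 ± 0.13 (adjusted p = 0.0226). The call held in 18 of 19 alternatives for Klf4 and 15 for Maf. Nfe2l2, the oxidative stress factor NRF2, had a log2 fold change of -0.35 ± 0.10 (adjusted p = 0.0508), just outside the threshold.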

How the data were processed

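Bulk RNA of 9 labial mucosa libraries, 3 per strain, was sequenced. The authors deposited 1 table of RSEM expected counts per library, with 55450 lines of gene symbols, and STAR, RSEM and GRCm38 are named, without versions, per the submitters' processing notes. The 107 symbols that stood on several lines were summed, and the expected counts were rounded to whole numbers. Library totals ran from 27192359 to 46456500 counts. Strains were compared with edgeR 4.0.16 (R 4.3.3): filterByExpr, TMM factors, and the quasi-likelihood test fitting 1 mean per strain to all 9 libraries, which leaves 6 residual degrees of freedom. P-values were adjusted by Benjamini-Hochberg over the 16523 genes that passed the filter, with a threshold of 0.05. CPM is a count divided by the TMM-scaled library total, times 1000000. A standard error was taken as the log2 fold change over the square root of the F statistic, so the 95% intervals are approximate. Ratios and ranks of single genes use CPM per kilobase of the transcript with the longest coding sequence (GENCODE M21), while class sums and shares are of CPM.

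Alternatives were other scaling factors, DESeq2 1.42.0, limma 3.58.1 on log2(CPM + 1), other filters, a replicate block, robust dispersions, the 6 libraries compared, and each library left out. The edgeR code was tested on simulated data. Libraries of a strain differed beyond counting noise (chi-square per degree of freedom 14.6 to 86.4), so no table was a copy of another, while repeat preparations of 1 sample are not excluded. Named were the keratins that passed in any comparison, averaged 50 CPM or more, or were among the 4 highest of their class, and up to 3 genes of each other list by smallest adjusted p. The members, classes and marker lists were chosen with earlier results of these data known. Of the 50 members, 11 share at least 10% of their 50-base stretches with another annotated gene, where the split of reads is uncertain. Counting intervals cover counting error only.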

Additional observations from a re-analysis of the deposited data

How the results depend on the processing

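Over 1995 values of single genes under other settings, no called difference changed its sign. In Tac111 against B6, where 2 keratins passed, 1 passed with median-ratio factors, with library sizes taken without keratins, with limma or with a filter of 1 CPM in 3 libraries, 4 with no filter (3.7% of all genes called), and 13 with only the 6 libraries compared (5.47%). Leaving out 1 library gave 0 to 5, with 0 without B6 replicate 2 or Tac111 replicates 2 or 3, and 5 without Tac146 replicate 4. In Tac146 against B6, where Krt90 passed, 0 passed with limma, upper-quartile factors, the 1 CPM filter or only the 6 libraries, 2 with no filter, and 0 to 1 with 1 library left out. In Tac111 against Tac146, where 4 passed, 7 passed with DESeq2 or with no filter (15.3% and 7.86% of all genes), and leaving out 1 library gave 2 (without Tac111 replicate 3) to 15 (without Tac146 replicate 4). Same-numbered libraries did not vary together (correlations of -0.073 to 0.188 across genes), so the numbers were not taken as pairs. The summed hair keratins did fall with replicate number in B6 (2457, 2201 and 1933 CPM) and Tac111 (4892, 4055 and 2744 CPM). In Tac146 they fell from replicate 2 to 3 (2218 and 1034 CPM), with replicate 4 at 4200 CPM. A pairing in these genes alone was not tested. With a replicate block the counts were 18, 0 and 17, where 5.29%, 0.266% and 3.82% of all genes were called, a fit in which Tac146 replicate 4 is the only library of its number and so carries no weight. The cause of the other changes was not tested. The 3 libraries per strain limit the precision, and Krt20 and Krt88 were tested only without the main filter on low counts.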
